A study of Mus musculus with 6 samples.

Results

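Endothelial cell genes were followed in cultured mouse fibroblast preparations on 1-colour Agilent arrays. The group holds 34 genes, chosen by name as marks of the cells that line blood and lymphatic vessels, of 20676 genes named on the array. All 34 were matched to probes through their RefSeq accessions, to 41 of 55681 probes. Heart cultures and, as their reference, tail cultures came from male C57/Bl6-J mice of 8 weeks. Chopped hearts and skinned tails were digested with trypsin or collagenase, and the plated cells were kept for 5 days in medium with serum before RNA extraction. Each tissue had 3 arrays, described in the series as biological replicates pooled from 2 animals, and no genotype or drug differed between them. No step that selects or removes endothelial cells or leukocytes is described, so the label fibroblast rests on plating and culture. All 12 listed general fibroblast markers were well above background on every array. So were 19 to 21 of 22 listed leukocyte genes, so this flag does not test the label.

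Endothelial cells are joined by VE-cadherin, the product of Cdh5, and by claudin-5, from Cldn5. They respond to VEGF through Kdr and Flt1, to angiopoietins through Tek, and are specified by ETS, SoxF and other transcription factors. Pecam1, Icam2, Fli1, Tal1, Cd34, Stab1 and Lyve1 are also known from blood cells or macrophages, and Cd34 from stromal fibroblasts, so that not every gene in the group marks endothelium alone.

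The proximal promoters of a few of these genes are shown because most of the genes differed in 1 direction in the comparison without the 2 doubted arrays described below. RefSeq promoter sequences (build GRCm38.p6) were matched for 18 of the 34 genes. Letters searched on both strands were CNGGAAG, a form of the ETS motif, AACAAT for Sox factors and AGATAA for GATA factors, and no matches overlap one another in the windows printed. The 250 bases before the annotated start are printed 5′ to 3′ on the gene's strand, with matches in capitals. Tie1 (chr4:118489850-118490099, minus strand) holds the ETS letters in 2 places, Stab1 (chr14:31168642-31168891, minus strand) in 1 place, and Emcn (chr3:137340828-137341077, plus strand) holds 1 ETS and 1 Sox match. Cd34 (chr1:194938571-194938820, plus strand), which fell in heart, also has 1 ETS match, and Cldn5 (chr16:18776597-18776846, plus strand), which rose, has none of the 3.
Tie1: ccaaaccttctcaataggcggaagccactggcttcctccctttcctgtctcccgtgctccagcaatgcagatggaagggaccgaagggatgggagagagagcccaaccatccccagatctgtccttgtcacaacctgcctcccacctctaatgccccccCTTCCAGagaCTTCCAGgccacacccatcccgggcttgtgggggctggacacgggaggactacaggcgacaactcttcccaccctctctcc
Emcn: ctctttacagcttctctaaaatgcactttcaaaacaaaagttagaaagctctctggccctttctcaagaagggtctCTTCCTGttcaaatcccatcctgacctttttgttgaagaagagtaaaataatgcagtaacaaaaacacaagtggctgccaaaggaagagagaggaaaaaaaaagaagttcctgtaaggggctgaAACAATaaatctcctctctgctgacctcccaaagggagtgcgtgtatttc
Stab1: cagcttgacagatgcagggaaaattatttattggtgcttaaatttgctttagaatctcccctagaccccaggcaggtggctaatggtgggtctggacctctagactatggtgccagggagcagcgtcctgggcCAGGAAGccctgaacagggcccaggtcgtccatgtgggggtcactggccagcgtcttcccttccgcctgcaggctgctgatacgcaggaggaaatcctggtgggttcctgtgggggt
Cd34: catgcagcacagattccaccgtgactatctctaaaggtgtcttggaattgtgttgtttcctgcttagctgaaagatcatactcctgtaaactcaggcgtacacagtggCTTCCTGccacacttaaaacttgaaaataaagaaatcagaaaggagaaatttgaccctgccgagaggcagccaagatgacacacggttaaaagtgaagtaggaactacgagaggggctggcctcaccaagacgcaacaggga
Cldn5: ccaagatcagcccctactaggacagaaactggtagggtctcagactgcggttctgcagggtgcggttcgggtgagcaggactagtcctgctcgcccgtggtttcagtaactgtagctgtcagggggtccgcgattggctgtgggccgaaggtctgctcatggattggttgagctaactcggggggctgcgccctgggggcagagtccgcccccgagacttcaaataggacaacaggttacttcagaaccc
Over these windows, 12 of the 18 promoters (66.7%) hold the ETS letters, against 26.2% of 27025 promoters in the table. The Sox letters stand in 2 of the 18, against 9.65% of all, and the GATA letters in 1 of the 18, against 10.3%. These are counts of letters, not of bound sites, and were not split by direction of change. Among the promoters not printed, the ETS letters stood in Flt1 and Robo4, which rose, and in Clec14a, which fell. They also stood in Apln, Egfl7 and Rasip1, which did not pass, and in Flt4 and Prox1, which were not tested. Eng, Tal1 and Tek, which rose, Kdr, which did not pass, and Erg, which was not tested, had none.

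Levels are given as log2 of the processed spot signal minus the array's own 75th percentile, so that 0 marks that percentile. A level can be set against the same probe on another array but not against another probe. The share of spots well above background was 99.3% on the array labelled heart 2, which had 2748 spots marked as non-uniform, and 47.3% to 55.2% on the others. Over all probes outside the endothelial group, the levels of heart 2 correlated with the other arrays at 0.743 to 0.764, and all other pairs at 0.957 to 0.988. Against its label, tail 1 had a higher correlation with heart 1 (0.988) and heart 3 (0.979) than with tail 2 (0.969) and tail 3 (0.957). Counts and medians are therefore given by label on all 6 arrays, and again for heart 1 and 3 against tail 2 and 3, while a single gene's difference by label is given where the text turns on it. The removal of tail 1 rests on measured expression, so adjusted p-values on 4 arrays are too small by an unknown amount.

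By label no endothelial gene passed the test. Of the 34 genes 30 were tested, 23 were higher in heart on average, and the median log2 difference was 0.85, against -0.35 over all 20197 features. In limma, 0 of the 30 had an adjusted p under 0.05, the share called over all features being 0% in each direction, and 6 had an unadjusted p under 0.05, as did 464 of all 20197 features. The smallest adjusted p of a member was 0.726. The groups did not overlap, with heart above, for Cldn5 and Sox18, 2 of 30, where 2.19% of all features did so, and Cd34 lay below in heart without overlap, where 7.93% did. The by-label direction depended on the scaling: 18 of 30 were higher in heart after quantile normalization, 19 with normexp background correction and 13 with median scaling, which moved the median of all features to -1.31 and that of the members to -0.11. Apln, Stab1, Rasip1, Gpihbp1, Flt1, Sox18, Ecscr, Cdh5, Fli1, Pecam1, Tek, Eng, Tal1 and Egfl7 turned sign in at least 1 of these. Without heart 2 alone, 27 of 30 were higher in heart with a median of 1.18, and still 0 passed (0% of 20281 features in each direction), 0 having an unadjusted p under 0.05. Of the 30, 4 then lay above in heart without overlap (7.07% of all features) and 2 below (12.2%).

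Between heart 1 and 3 and tail 2 and 3, the endothelial genes were mostly higher in heart. The claudin gene Cldn5, the Sox factor gene Sox7 and the receptor gene Robo4 were at least 8.99-, 9.32- and 16.3-fold higher, and Icam2 and Cdh5 were 9.12- and 5.66-fold higher. "At least" marks a lower bound, used where tail 2 and 3 were not well above background, with each tail array set at its lowest signal that was, or at the dim probe's reading if that was larger. For Robo4, and for Notch4 among the further genes, the reading was larger on both arrays, so the bound equals the ratio as measured. Differences in parentheses are log2, heart minus tail, with the standard error (SE). Of 30 tested genes 22 rose, 2 fell (Cd34 and Clec14a) and 6 did not pass. Of the 22, 7 were well above background on neither tail 2 nor tail 3, and Tal1 on tail 2 only. These entered the test through heart alone, and Clec14a, which fell, through tail alone. Among the 21 genes well above background on every array 14 rose and 1 fell. Of all 18556 features that met this filter on the 4 arrays, 1155 rose and 1000 fell. Over all 20567 features 7.74% were called higher and 6.53% lower, with limma at an adjusted p under 0.05. The median difference of the endothelial genes was 1.80, against -0.06 for all features, with 27 of 30 positive under each of these scalings, and 1.57 with the 7 genes that were not well above background on tail 2 or 3 set at their lower bound. With normexp background correction it was 0.91, against -0.04 for all features. Then 20 genes rose, as did 1604 of all 20567 features. The groups did not overlap in 26 genes with heart above (25.9% of all features) and in 2 with heart below (36.4%). Calls depended on single arrays, and leaving out 1 of the 4 left a single array of 1 tissue. Without heart 1, Prox1 also entered the test, through heart 3 alone. The calls lost without tail 2 were those of Cd34, Cdh5, Eng, Esam, Fli1, Flt1, Gpihbp1, Lyve1, Sox17, Sox18, Stab1 and Tek, and those lost without tail 3 were Cd34, Eng, Esam, Fli1, Flt1, Gpihbp1, Sox18, Stab1, Tal1, Tek and Vwf. Without heart 3, Icam2, Sox17, Sox18, Stab1, Tal1 and Vwf lost the call, and without heart 1, Flt1, Tal1 and Vwf. Their adjusted p-values then reached up to 0.292 (Sox18, without tail 3). With no filter on dim probes 5 passed, namely Cldn5, Tie1, Emcn and Plvap higher and Clec14a lower. Of all 37066 features 692 passed then. In bulk RNA, fewer cells of a type and less RNA per cell cannot be told apart.

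**Figure D1:**
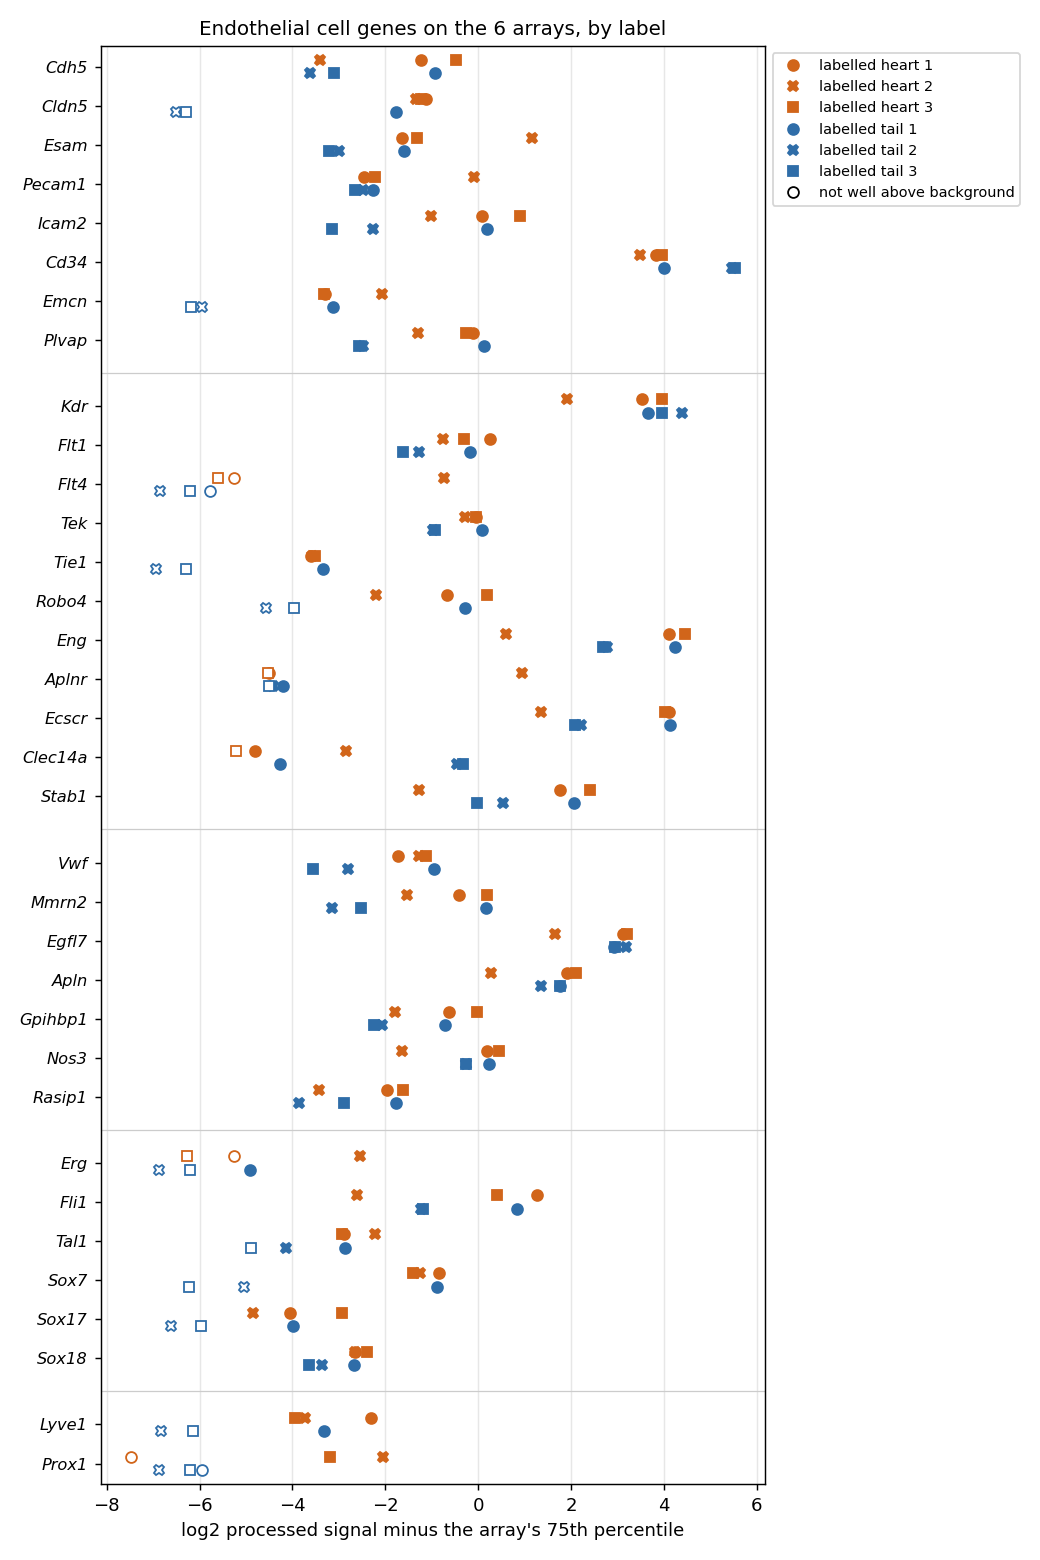
Level of each of the 34 endothelial cell genes on the 6 arrays (x axis, log2 processed signal minus the array's 75th percentile; 1 row per gene, grouped by role from adhesion at the top to lymphatic genes at the bottom; open symbols, not well above background). In most rows the array labelled tail 1 (blue circle) lies with heart 1 and 3 (orange circle and square), and tail 2 and 3 lie to the left, while heart 2 (orange cross) takes either side; Cd34 and Clec14a run the other way.

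Of the 8 cell junction and adhesion genes on 4 arrays, 6 rose in heart, 1 fell and 1 did not pass. Cdh5, the endothelial cadherin, read -1.23, -3.40 and -0.47 for cultures 1, 2 and 3 of heart, against -0.92, -3.61 and -3.09 for cultures 1, 2 and 3 of tail. Heart 2 and tail 1 each lay with the other tissue, and without these arrays the difference was 2.50, SE 0.34, adjusted p = 0.0137 (by label 0.84, SE 0.93; without tail 2 the adjusted p was 0.0554). Cldn5, the tight-junction claudin of vessels, read -1.12, -1.34 and -1.24 in heart, against -1.78, -6.50 and -6.29 in tail. All 3 heart arrays were above all 3 tail arrays, and tail 2 and 3 were not well above background. The difference by label was 3.62, SE 1.16, and on 4 arrays the gene was at least 8.99-fold higher in heart (adjusted p = 0.000749). Its call held without each of the 4 arrays in turn.

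Esam, an adhesion molecule of endothelial junctions and platelets, read -1.63, 1.16 and -1.31 in heart, against -1.59, -2.99 and -3.22 in tail. It was 3.1-fold higher on 4 arrays (1.63, SE 0.19, adjusted p = 0.00946), with heart 2 above all other arrays and tail 1 between heart 1 and 3. Icam2, an adhesion molecule for leukocytes, read 0.078, -1.0 and 0.90 in heart, against 0.18, -2.25 and -3.15 in tail. Tail 1 lay inside the heart range, and on 4 arrays Icam2 was 9.12-fold higher (3.19, SE 0.43, adjusted p = 0.0136). Emcn, the mucin endomucin, read -3.30, -2.06 and -3.33 in heart, against -3.13, -5.95 and -6.19 in tail. It was not well above background on tail 2 and 3 and was at least 2.05-fold higher in heart on 4 arrays (adjusted p = 0.00172).

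Plvap, which forms the diaphragms of fenestrae and caveolae, had probes that differed in size. The brighter read -0.11, -1.30 and -0.25 in heart, against 0.12, -2.49 and -2.56 in tail, a 5.08-fold difference on 4 arrays (adjusted p = 0.00211). Its other probe differed by 0.53 between the same arrays. Pecam1, a widely used endothelial marker that platelets and leukocytes also carry, read -2.45, -0.096 and -2.23 in heart, against -2.25, -2.49 and -2.65 in tail. The 5 other arrays lay close together and heart 2 stood above them, and Pecam1 did not pass on 4 arrays (0.22, 95% interval -0.22 to 0.67, adjusted p = 0.433). Cd34, a sialomucin of endothelium, blood progenitors and stromal fibroblasts, read 3.83, 3.48 and 3.97 in heart, against 4.01, 5.47 and 5.54 in tail. Every heart array lay below every tail array, and on 4 arrays Cd34 was 3.03-fold higher in tail (-1.60, SE 0.15, adjusted p = 0.00542). Its second probe had the same direction, with a 4-array difference of -1.33. Its call was lost without tail 2 or without tail 3, at an adjusted p of up to 0.0601.

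**Figure D2:**
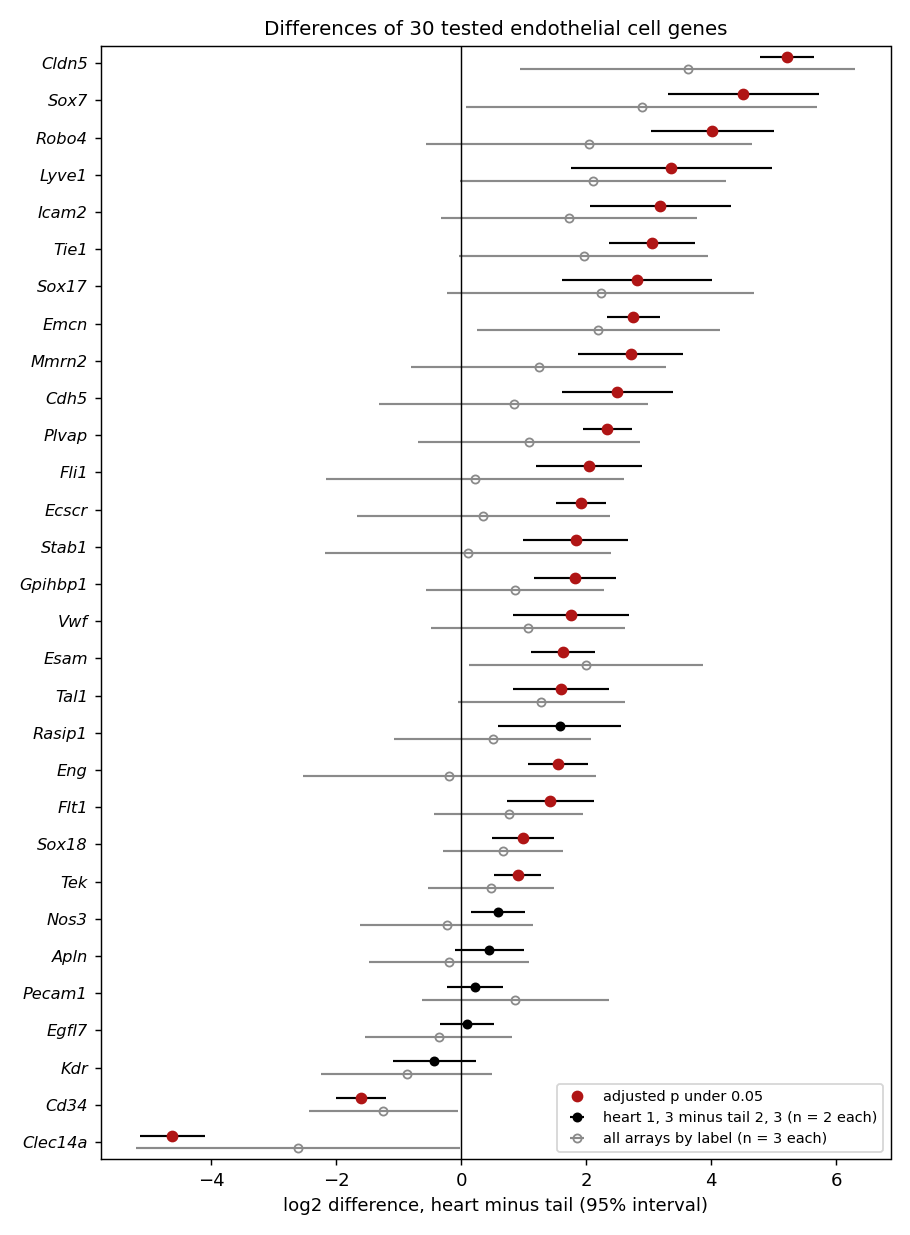
Log2 difference, heart minus tail, of the 30 tested endothelial cell genes with 95% intervals from limma, for heart 1 and 3 minus tail 2 and 3 (upper mark of each row, red where the adjusted p was under 0.05) and for all 6 arrays by label (grey, lower mark; for Sox17 from its other probe). The 22 genes that rose on 4 arrays lie at 0.91 (Tek) or above, with the 7 genes that were not well above background on tail 2 and 3 plotted as measured there, most grey intervals cross 0, and no gene passed by label.

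Of 11 receptor genes, 9 were tested, 7 rose, 1 fell and 1 did not pass. The VEGF receptor gene Flt1 read 0.27, -0.75 and -0.30 in heart, against -0.17, -1.27 and -1.62 in tail. It was 2.69-fold higher in heart on 4 arrays (1.43, SE 0.26, adjusted p = 0.0325), and lost the call without heart 1, tail 2 or tail 3, with an adjusted p of up to 0.172. Kdr, the other VEGF receptor gene, gave probes that disagreed. The brighter read 3.52, 1.91 and 3.97 in heart, against 3.67, 4.39 and 3.96 in tail, overlapping between groups and not passing (-0.43, 95% interval -1.09 to 0.24). The dimmer probe read -1.65, -3.53 and -1.34 in heart, against -1.73, -2.73 and -3.15 in tail, a 4-array difference of 1.45 in the other direction. Which probe reports the receptor transcript was not tested.

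Tek, the angiopoietin receptor gene, read -0.05, -0.29 and -0.039 in heart, against 0.076, -0.97 and -0.93 in tail, a small difference on 4 arrays (0.91, SE 0.14, adjusted p = 0.0212). Tie1, its partner receptor, read -3.60, -3.57 and -3.52 in heart, against -3.35, -6.94 and -6.28 in tail. Tie1 was not well above background on tail 2 and 3 and was at least 1.72-fold higher in heart on 4 arrays (adjusted p = 0.00417). The authors' deposited table, which lists 433 probes and only 2 of the endothelial ones, gives Tie1 as 10.5-fold higher in heart and Cd34 as -2.71, on its signed scale of heart against tail. The like ratio for Tie1 here, as measured and not as a bound, was 8.29 on 4 arrays and 3.89 by label. These ratios use the dim readings of tail 2 and 3.

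Robo4, a guidance receptor that stabilises vessels, read -0.66, -2.19 and 0.19 in heart, against -0.29, -4.56 and -3.96 in tail. Tail 2 and 3 were not well above background, and the 4-array difference was at least 16.3-fold (adjusted p = 0.00527). Eng, a TGF-beta co-receptor carried by endothelium and stromal cells, read 4.12, 0.59 and 4.45 in heart, against 4.25, 2.78 and 2.69 in tail. Heart 2 had the lowest value and tail 1 matched heart 1 and 3, and the difference by label was -0.19, SE 1.02, while on 4 arrays it was 1.55, SE 0.18, adjusted p = 0.00946.

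Ecscr, a membrane protein of endothelial signalling, read 4.11, 1.37 and 4.03 in heart, against 4.14, 2.22 and 2.08 in tail. On 4 arrays it was 3.79-fold higher (1.92, SE 0.15, adjusted p = 0.00331), and by label the difference was 0.36, with heart 2 below every tail array. Stab1, a scavenger receptor of sinusoidal endothelium and macrophages, read 1.77, -1.27 and 2.41 in heart, against 2.06, 0.54 and -0.021 in tail, which was 3.57-fold higher on 4 arrays (adjusted p = 0.0273). Clec14a, an endothelial lectin-like receptor, read -4.81, -2.85 and -5.21 in heart, against -4.28, -0.45 and -0.33 in tail. As measured it was 24.6-fold higher in tail on 4 arrays (-4.62, SE 0.20, adjusted p = 0.00108). It was well above background on 1 of these 2 heart arrays, so it entered the test through tail alone. Its reading on heart 3 lay under that array's lowest signal well above background (-4.17), and no bound was set for it. Its second probe was well above background on heart 2 only, so the call rests on 1 probe. Flt4, the receptor for lymphatic VEGF, was well above background only on heart 2 (-0.73), and Aplnr, the apelin receptor, only on heart 1 and 2, with tail 1 and 2. Neither was tested.

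**Figure D3:**
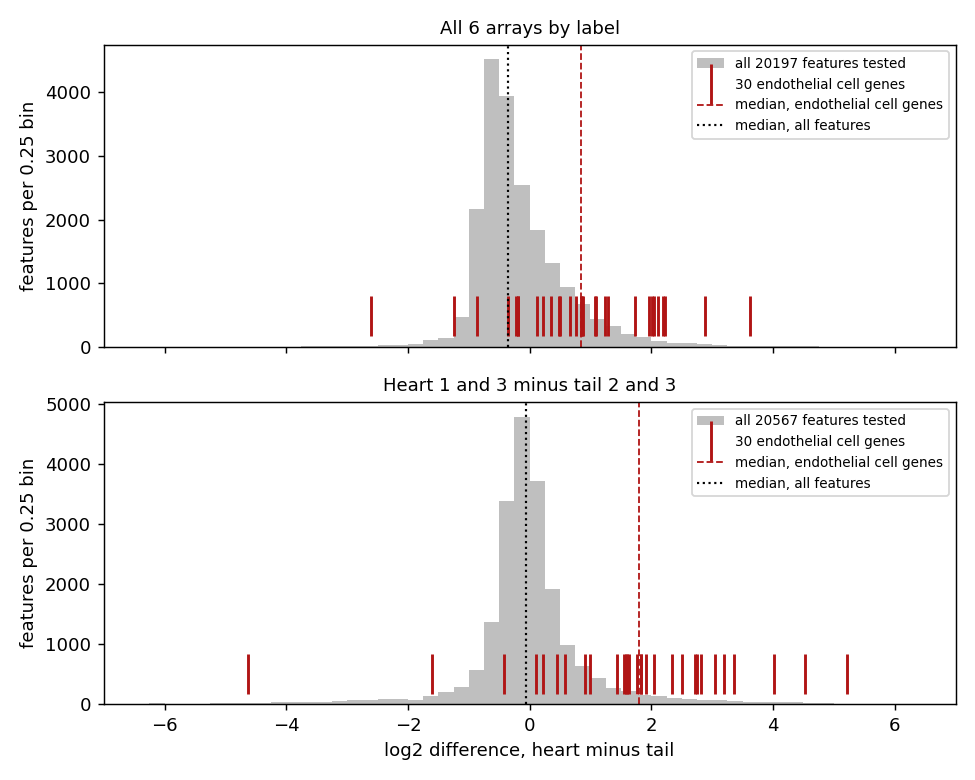
Distribution of log2 differences, heart minus tail, over all features tested (grey, features per bin of 0.25) with the 30 tested endothelial cell genes as red ticks, by label on 6 arrays (upper panel) and for heart 1 and 3 minus tail 2 and 3 (lower panel). The median of the endothelial genes (dashed) is 0.85 by label and 1.80 on 4 arrays, and that of all features (dotted) -0.35 and -0.06; by label the number of endothelial genes with a positive difference falls from 23 to 13 under median scaling.

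Among secreted proteins, matrix proteins and enzymes, 3 of 7 rose and 4 did not pass. Vwf, the clotting factor stored by endothelium and platelets, read -1.71, -1.27 and -1.12 in heart, against -0.95, -2.80 and -3.56 in tail. On 4 arrays it was 3.4-fold higher (1.76, SE 0.35, adjusted p = 0.0402), with an adjusted p of up to 0.141 when 1 array was left out. Mmrn2, an endothelial matrix protein that binds Clec14a, read -0.41, -1.54 and 0.18 in heart, against 0.17, -3.14 and -2.52 in tail. It was 6.58-fold higher on 4 arrays (2.72, SE 0.32, adjusted p = 0.00942) and kept the call without each array. Gpihbp1, which anchors lipoprotein lipase to capillaries, read -0.63, -1.79 and -0.03 in heart, against -0.72, -2.08 and -2.24 in tail, a 3.55-fold difference on 4 arrays (adjusted p = 0.0143).

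Rasip1, an effector of small GTPases in vessel lumens, read -1.97, -3.43 and -1.63 in heart, against -1.78, -3.87 and -2.89 in tail. It missed the threshold on 4 arrays (1.58, SE 0.37, adjusted p = 0.0622), though the groups did not overlap there. Nos3, the endothelial nitric oxide synthase, read 0.19, -1.63 and 0.45 in heart, against 0.23, -0.27 and -0.27 in tail, and also missed it (0.59, SE 0.16, adjusted p = 0.0935). Its dimmer probe, not well above background on tail 3, differed by 0.79 on 4 arrays. By label the dimmer probe differed by 1.03 and the brighter by -0.23. Apln, a peptide ligand, read 1.92, 0.29 and 2.11 in heart, against 1.76, 1.35 and 1.77 in tail, with a 95% interval of -0.10 to 1.01 for the 4-array difference. Egfl7, a secreted factor, read 3.12, 1.65 and 3.20 in heart, against 2.93, 3.18 and 2.94 in tail, with an interval of -0.33 to 0.53. The intervals of Apln and Egfl7 both include 0.

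Of the 6 transcription factor genes, 5 were tested on 4 arrays and all 5 rose in heart, of which Sox7, Sox17 and Tal1 entered the test through heart alone. Fli1, an ETS factor of endothelium and blood, read 1.27, -2.61 and 0.40 in heart, against 0.83, -1.23 and -1.19 in tail. Heart 2 was lower than every tail array and tail 1 lay with heart 1 and 3, and the difference was 2.05, SE 0.32, adjusted p = 0.0213 on 4 arrays but 0.22, SE 1.03 by label. Tal1, a factor of blood and endothelial development, read -2.89, -2.22 and -2.94 in heart, against -2.87, -4.13 and -4.90 in tail. It was 3.03-fold higher on 4 arrays (adjusted p = 0.032), with tail 3 not well above background.

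The 3 SoxF genes encode factors of arterial and lymphatic development. Sox7 read -0.84, -1.26 and -1.41 in heart, against -0.89, -5.05 and -6.24 in tail. It was at least 9.32-fold higher on 4 arrays (adjusted p = 0.00668). Sox17 read -4.04, -4.84 and -2.93 in heart, against -3.98, -6.62 and -5.97 in tail on the brighter of its probes over these 4 arrays. It was not well above background on tail 2 and 3 with either probe, and was at least 1.82-fold higher (adjusted p = 0.0229). Its second probe differed by 1.52 on 4 arrays, and was used by label (2.23). Sox18 read -2.64, -2.65 and -2.38 in heart, against -2.68, -3.36 and -3.64 in tail, all heart arrays above all tail arrays, with a 4-array difference of 0.99, SE 0.19, adjusted p = 0.0364. Erg, an ETS factor of mature endothelium, was well above background on heart 2 and tail 1 only, and was not tested.

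Of the genes of lymphatic vessels, Lyve1, a hyaluronan receptor also found on macrophages, read -2.31, -3.72 and -3.95 in heart, against -3.32, -6.84 and -6.15 in tail. It was at least 2.32-fold higher in heart on 4 arrays (adjusted p = 0.0312). Prox1, the regulator of lymphatic identity, was well above background on heart 2 and 3 (-2.04 and -3.19) and on no tail array. It was not tested by label on 6 arrays or on the 4 arrays. Further lymphatic genes gave 0 calls among 4 tested, at a median difference of 0.34 on 4 arrays and -0.36 by label.

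The array labelled tail 1 resembled heart 1 and 3 at these genes. Tail 1 lay nearer to their mean than to that of tail 2 and 3 at 28 of the 30 tested members (93.3%), and at 72.1% of all features tested. Among features called on 4 arrays, it did so at all 24 members (100%) and at 98.7% of all 2933, so the called members did not stand apart. Heart 2 lay nearer to heart 1 and 3 at 18 members (60%) and at 53% of all features, and at 66.7% of called members against 43.2% of all called features. Well above background were 31, 34 and 30 of the 34 genes on heart 1, 2 and 3, and 32, 24 and 22 on tail 1, 2 and 3. The count for heart 2 comes with an array on which nearly every spot was above background.

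Other genes of vessels, listed apart from the 34, gave smaller counts on 4 arrays. Of 31 further endothelial genes tested, 15 rose and 2 fell, with a median difference of 0.85. Over all features 7.74% were called higher and 6.53% lower on these arrays. Some of the 15, Notch4 and Selp among them, were not well above background on both tail 2 and 3 and entered the test through heart alone. Those with the largest differences were Ptprb, the endothelial receptor phosphatase gene (55.3-fold, adjusted p = 0.00146), the Notch receptor gene Notch4 (at least 26.5-fold, adjusted p = 0.00277) and Selp, which encodes P-selectin (at least 8.39-fold, adjusted p = 0.00122). Klf2, a shear-stress factor, and Gata2 fell, with differences of -1.53 and -1.27. Among 7 angiogenic ligand genes 3 rose, Vegfc by 7.18-fold, Angpt2 by 2.46-fold and Vegfa by 2.14-fold. By label 0 of the 31 and 0 of the 7 passed (0% of all features), at medians of 0.30 and -0.18.

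**Figure D4:**
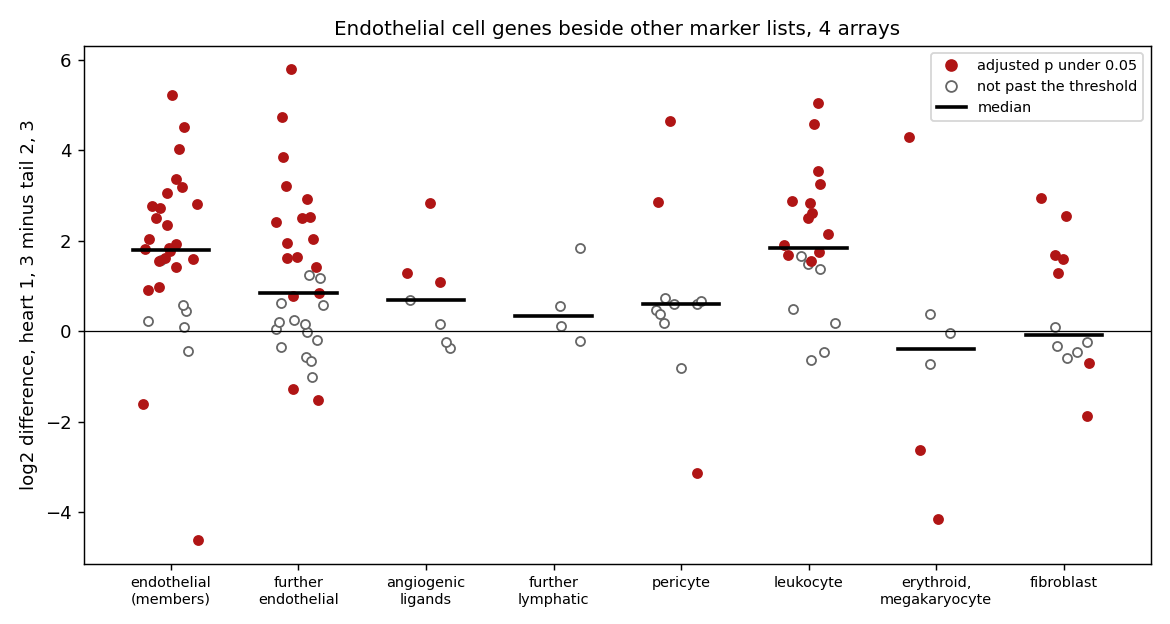
Log2 difference, heart 1 and 3 minus tail 2 and 3, for the tested genes of 8 marker lists (each point a gene, spread sideways; filled red, adjusted p under 0.05 in limma; black bar, median). The medians of the endothelial and leukocyte genes are 1.80 and 1.84, and that of the fibroblast markers is -0.08.

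Markers of other cells also differed. Of 20 leukocyte genes tested on 4 arrays, 13 rose and 0 fell, at a median of 1.84, where 7.74% of all features were called higher. By label 0 of 20 passed and the median was 0.29. On 4 arrays the largest rises were those of the macrophage genes Ms4a7 (32.9-fold), Aif1 (23.8-fold) and Cx3cr1 (11.7-fold). The 7 that did not pass there were Fcer1g (log2 difference 1.67), Coro1a (1.48), Adgre1 (1.39), Cd14 (0.48), Csf1r (0.19), Cd3e (-0.45) and Itgam (-0.63). Well above background were 20, 21 and 20 of 22 leukocyte genes on heart 1, 2 and 3, and 20, 20 and 19 on tail 1, 2 and 3. The log2 of their summed scaled signal was 6.81, 4.91 and 7.64 in heart, against 7.30, 6.51 and 6.04 in tail. For the 34 endothelial genes the same sum was 6.48, 5.17 and 6.68 in heart, against 6.55, 6.56 and 6.48 in tail. Such sums weigh bright probes most. The part of leukocytes in the values of Fli1, Icam2, Stab1, Lyve1 and the other genes shared with blood cells was not tested.

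Of 11 genes of pericytes, cells that wrap capillaries, 2 rose, Vtn and Notch3, and Cspg4 fell (at least 7.42-fold for Vtn, and log2 differences of 2.86 and -3.14 for Notch3 and Cspg4). The list's median difference was 0.60, and by label 0 of 11 passed at a median of 0.26. Of 6 erythroid and megakaryocyte genes tested, the platelet chemokine gene Pf4, which macrophages also express, rose (4.30), and Ppbp and Itga2b fell and were not well above background on heart 1 or 3, at least 8.86-fold and 4.56-fold higher in tail. The fibroblast markers went both ways, 5 of 12 higher and 2 lower on 4 arrays, with a median of -0.08. For these 3 lists the share called over all features on 4 arrays was 7.74% higher and 6.53% lower. By label 0 of 12 fibroblast markers passed, 1 was higher in heart and the median was -0.64, and 0 of 5 erythroid and megakaryocyte genes passed, at a median of -0.14.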

How the data were processed

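RNA of 6 cultures, 3 labelled heart and 3 labelled tail, was hybridised to 1-colour Agilent arrays, and the titles of the samples gave each its tissue and number. Per the file headers, the deposited spot intensities come from Agilent Feature Extraction, version 11.0.1.1; its processed signal is background-subtracted and is not scaled between arrays. Deposited flags of other kinds, 0 or 1 per spot, mark signal well above background and outliers. The authors' deposited table of the series gives a log2 fold change, an absolute fold ratio and a signed fold, a score below 0 where heart is lower; the choice of its probes is not explained there.

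Each probe's level was log2 of the processed intensity minus the array's 75th percentile over non-control spots. Outlier spots were left out and repeat spots averaged. Probes were named by accession through RefSeq (27235 of 55681 probes; 27 by the deposited table, 28419 without a symbol). A feature was kept where every array of 1 tissue or the other was well above background, with the brightest probe for a gene. Heart minus tail was fitted with limma 3.58.1 in R 4.3.3 (lmFit and eBayes, two-sided, Benjamini-Hochberg adjustment over all features, threshold 0.05, intervals at 95%). The fit was run by label on 6 arrays, without heart 2, and without heart 2 and tail 1, and was tested on simulated data. Where a gene was not well above background on any compared array of 1 tissue, a lower bound of the fold was computed, with each of those arrays at its lowest signal well above background, or at the dim probe's reading if larger. Tables and figures used Python 3.11.15, pandas 2.3.3 and matplotlib 3.10.9. The number of arrays limits the precision, and the labels do not tell if cultures of both tissues shared animals.

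The endothelial genes and the other lists were chosen with earlier results of these data known. Every gene of the group is accounted for, and values per array are given for those called on 4 arrays or well above background on all 6. Of each other list, up to 3 called genes with the largest absolute difference on 4 arrays are named. Klf2 and Gata2, the 2 further endothelial genes that fell, and the 7 leukocyte genes that did not pass were named after their values were seen. Alternatives were quantile normalization, median scaling, normexp background correction (offset 50, on median spot and background intensities), no filter and a stricter filter, the mean of a gene's probes, trended robust estimation, the slide row as a block, the replicate number as a block and leaving out each array.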

Additional observations from a re-analysis of the deposited data

How the results depend on the processing

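By label, 0 features and 0 endothelial genes passed, and the counts were 0 to 239 and 0 to 1 when 1 array was left out, the highest without heart 1. That 1 gene was Prox1, which entered the test there through heart 2 and 3 alone. None of the 30 genes tested by label passed when 1 array was left out. Same-numbered heart and tail arrays deviated from their group means with correlations of 0.38, 0.05 and -0.24. Each mean rests on 3 arrays, with heart 2 or tail 1 among them, so these values cannot decide whether the numbers pair the samples. With the replicate block in limma, 120 features and 2 endothelial genes passed (Cldn5, adjusted p = 0.00436, and Sox7, adjusted p = 0.031). On 4 arrays no residual degrees of freedom were left for that block. There, the members' median was 0.91 with normexp, against 1.80. On these arrays 2933 features and 24 endothelial genes passed, against 692 and 5 with no filter on dim probes. Where signal well above background was required on every array, 15 of 21 endothelial genes and 2155 of 18556 features passed. Leaving out 1 array gave 1489 to 4056 features and 12 to 23 endothelial genes, the lone array of a tissue being assumed to vary like the others. Calls of 9 endothelial genes (Cldn5, Clec14a, Ecscr, Emcn, Mmrn2, Plvap, Robo4, Sox7 and Tie1) held without each array in turn. The slide row as a block and the mean of probes ended no call on 4 arrays, normexp ended 3 and trended robust estimation 1.

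Directions turned mainly by label, where no gene was called. Under quantile normalization the log2 differences that turned were Stab1 -0.63, Rasip1 -0.60, Gpihbp1 -0.25, Sox18 -0.60, Cdh5 -0.29, Fli1 -1.0, Tal1 -0.062, Eng 0.053 and Egfl7 0.085. Under median scaling they were Stab1 -0.85, Rasip1 -0.46, Gpihbp1 -0.10, Flt1 -0.20, Sox18 -0.29, Ecscr -0.61, Cdh5 -0.12, Fli1 -0.74, Pecam1 -0.092 and Tek -0.48. With normexp they were Apln 0.059, Stab1 -0.16, Rasip1 -0.32, Sox18 -0.30, Cdh5 -0.12, Fli1 -0.24, Tal1 -0.023 and Eng 0.14, and with the mean of probes Nos3 0.40. Leaving out 1 array gave ranges of -0.52 to 0.39 for Apln, -0.60 to 1.24 for Stab1, -0.0068 to 1.05 for Rasip1, -0.11 to 1.26 for Ecscr, -0.57 to 1.37 for Fli1, -0.62 to 0.42 for Nos3, -0.88 to 1.04 for Eng and -0.63 to 0.15 for Egfl7. On 4 arrays Kdr turned to 0.51 with the mean of its probes, which differ in sign, and Egfl7 ranged over -0.014 to 0.22 when 1 array was left out. By label the probes of Nos3 also differ in sign (-0.23 and 1.03). Median scaling subtracts 1 constant per array, so by label it moved every endothelial gene down by the same amount. The cause of the other turns was not tested. Signal over background limits the 7 called genes that were not well above it on tail 2 and 3, for which a lower bound alone is known.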
